A study of Mus musculus with 12 samples.

Results

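Retinoic acid, the signalling form of vitamin A, was followed here through 9 genes that make it, break it down, carry it or receive it. These were the retinal dehydrogenases Aldh1a1, Aldh1a2 and Aldh1a3, the hydroxylase Cyp26b1, the cellular binding proteins Crabp1 and Crabp2, and the nuclear receptors Rara, Rarb and Rarg. They were chosen by function, with earlier results of these data known. They were found by symbol in the deposited count table, which holds 23358 genes. All 9 had a row, and all 9 were among the 16190 genes with enough reads to be tested.

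Cells oxidise retinol to retinal and then, by a retinal dehydrogenase, to retinoic acid. Retinoic acid binds receptors that sit on DNA as pairs with retinoid X receptors at direct repeats of a short motif, and CYP26 enzymes clear it. In the skull vault this balance is known to bear on bone and suture formation, and loss of CYP26B1 is a known cause of fused and missing skull bones.

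Bulk RNA of newborn mouse skull was sequenced at postnatal day 3. The dissected piece was the frontal bone together with the nasal bone, the coronal suture and the frontonasal suture, which was digested with collagenase and trypsin before RNA extraction. Mice were wild type or carried 1 copy of the FGFR2C342Y/+ genotype, which models Crouzon syndrome, a condition of early suture fusion. Both genotypes were taken on the C57BL/6 and the BALB/c strain background, which gave 4 groups of 3 samples, and 12 samples in all.

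The C57BL/6 wild type samples are replicates 1 to 3, the C57BL/6 mutants 4 to 6, the BALB/c wild types 13 to 15 and the BALB/c mutants 16 to 18. The labels do not say whether these were separate animals, so p-values measure the spread between these samples. C57BL/6 and BALB/c samples carry the names of different flow cells, so strain and flow cell cannot be told apart, while genotypes were compared within a flow cell. Because whole tissue was sequenced, fewer cells of a type and less RNA per cell cannot be told apart.

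Levels are given as CPM, the count per 1000000 counts of a library total scaled between samples by TMM, and as CPM per kilobase of coding length where genes are compared with each other. Differences are log2 fold changes from 1 edgeR quasi-likelihood fit of all 12 samples. A gene was called when its Benjamini-Hochberg adjusted p over the 16190 genes was under 0.05.

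Library totals ran from 27181658 to 46521546 counts, and the lowest count of any of the 9 genes in a sample was 12. C57BL/6 mutant replicate 4 stood apart from its group on the first principal component, at -69.2 against 22.5 and 16.3 for replicates 5 and 6, with the C57BL/6 wild types at -117 to -89.6. Fgfr2 itself stood at 212 to 283 CPM in C57BL/6 wild types and 337 to 375 CPM in the mutants, a log2 difference of 0.54 (SE 0.10, edgeR adjusted p 0.0041). In BALB/c it stood at 269 to 290 CPM in wild types and 271 to 318 CPM in mutants, a log2 difference of 0.09 (SE 0.10, edgeR adjusted p 0.800). A gene count does not read the changed base, so this level checks no label.

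In C57BL/6, 6 of the 9 genes were lower in mutants and passed the test, namely Aldh1a1, Aldh1a2, Aldh1a3, Crabp1, Crabp2 and Rarb. Over all genes tested in that comparison, 23.9% were called in either direction and 12.6% were called lower. The median log2 difference was -1.31 over the 9 genes and -0.004 over all genes tested. In BALB/c the same genotype comparison called 0 of the 9 with edgeR, and 0.136% of all genes. At an unadjusted p under 0.05 it held 1 of the 9, Cyp26b1, and 1901 genes overall.

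**Figure D1:**
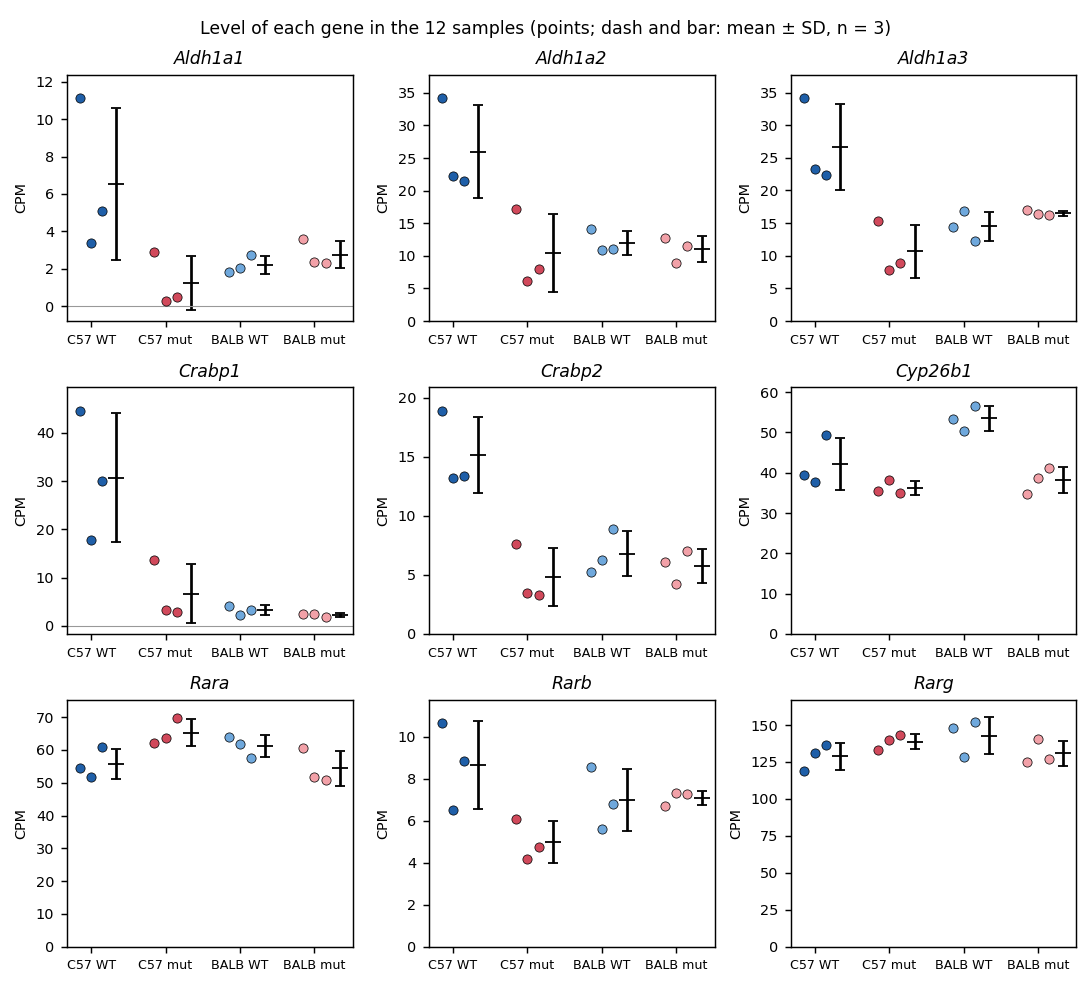
Level of each gene in CPM (vertical axes, each starting at or just below 0) in the 12 samples by group. Points are samples, and the dash with its bar is the mean ± SD of 3 samples. Aldh1a1, Aldh1a2, Aldh1a3, Crabp1, Crabp2 and Rarb reach their highest point in C57BL/6 wild type replicate 1, while the Rara and Rarg panels are nearly level.

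Promoter sequences from RefSeq (GRCm38.p6), each 300 bases long, were matched for 7 of the 9 genes in 12 windows. The windows of 4 of the lowered genes are shown, because they moved together and the retinoic acid receptors are known to act at promoters. Each runs 5′ to 3′ on the gene's own strand across a start that RefSeq annotates, which can lie outside the gene as the deposited table bounds it, as for Rarb and Crabp1, and capitals mark a match to a receptor motif, a direct repeat of a 6-letter site (AGGTCA, or its variants with the letters AGTTCA, with the letters GGGTCA, or with the letters GGTTCA) with 1, 2 or 5 bases between them, searched on both strands.
Rarb (chr14:16575427-16575726, minus strand): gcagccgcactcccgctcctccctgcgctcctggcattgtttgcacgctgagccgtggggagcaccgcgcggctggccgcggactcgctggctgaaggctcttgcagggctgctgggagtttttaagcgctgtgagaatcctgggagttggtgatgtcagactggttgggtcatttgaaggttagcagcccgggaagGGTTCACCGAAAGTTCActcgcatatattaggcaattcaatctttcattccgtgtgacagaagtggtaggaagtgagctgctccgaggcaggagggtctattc
Crabp1 (chr9:54764498-54764797, plus strand): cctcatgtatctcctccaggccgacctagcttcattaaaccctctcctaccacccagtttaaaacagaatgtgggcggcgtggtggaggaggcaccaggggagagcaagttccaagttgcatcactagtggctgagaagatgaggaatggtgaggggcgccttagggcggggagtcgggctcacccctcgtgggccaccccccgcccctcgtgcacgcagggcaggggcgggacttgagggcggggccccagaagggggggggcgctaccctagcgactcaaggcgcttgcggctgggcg
Aldh1a2 (chr9:71215539-71215838, plus strand): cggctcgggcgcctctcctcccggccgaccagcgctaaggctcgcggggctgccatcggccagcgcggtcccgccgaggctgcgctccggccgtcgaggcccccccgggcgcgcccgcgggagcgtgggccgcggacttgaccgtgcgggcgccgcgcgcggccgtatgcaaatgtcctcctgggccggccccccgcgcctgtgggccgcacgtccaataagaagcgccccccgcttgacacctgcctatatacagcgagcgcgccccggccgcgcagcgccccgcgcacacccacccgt
Aldh1a1 (chr19:20601718-20602017, plus strand): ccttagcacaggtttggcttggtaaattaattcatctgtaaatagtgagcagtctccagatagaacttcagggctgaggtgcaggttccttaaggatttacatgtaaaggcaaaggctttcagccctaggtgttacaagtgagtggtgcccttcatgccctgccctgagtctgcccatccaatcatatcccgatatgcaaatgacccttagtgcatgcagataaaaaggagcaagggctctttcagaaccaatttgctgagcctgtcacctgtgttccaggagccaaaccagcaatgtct

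The Rarb window held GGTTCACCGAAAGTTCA, a pair of sites with 5 bases between them, from 53 to 37 bases before the start. This element is the textbook retinoic acid response element of Rarb. Of 32851 promoter windows of the same length, 32 (0.0974%) held a repeat with 5 bases between the sites and 193 (0.588%) held any of the 3 spacings. Among the other windows of the 9 genes, including those printed for Crabp1, Aldh1a2 and Aldh1a1, these letters were not found. A match describes the letters of a window and says nothing of binding.

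The retinal dehydrogenases carry out the step that makes retinoic acid. All 3 were called lower in C57BL/6 mutants than in C57BL/6 wild types, where 12.6% of all genes tested were called lower. None was called between genotypes in BALB/c, where 0.136% of all genes were called. The C57BL/6 groups did not overlap for any of the 3, and the share of all genes without overlap is not given here.

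Aldh1a1 (chromosome 19, 20601982 to 20643462 in mm10) stood at 11.1, 3.37 and 5.09 CPM in C57BL/6 wild type replicates 1, 2 and 3 and at 2.89, 0.291 and 0.485 CPM in mutant replicates 4, 5 and 6. Replicate 1 was the highest of the wild types, replicate 4 lay far above the other mutants, and the groups did not overlap. The log2 difference was -2.40 (SE 0.69, 95% interval -3.91 to -0.89, edgeR adjusted p 0.0277). The call was lost when 1 library was left out. The log2 difference was -1.76 without wild type replicate 1 (edgeR adjusted p 0.115), -1.94 without mutant replicate 5 (0.0708) and -2.03 without mutant replicate 6 (0.0972). It was also lost with all libraries kept, when only the C57BL/6 samples were fitted (-2.38, adjusted p 0.120) and with Y-linked counts as a covariate (-2.35, adjusted p 0.0805). Y-linked counts were high in all 3 C57BL/6 wild types and in mutant replicate 6, and low in mutant replicates 4 and 5. Without mutant replicate 4 the log2 difference was -4.08.

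In BALB/c, Aldh1a1 was measured at 1.80, 2.04 and 2.75 CPM in wild types and 3.60, 2.37 and 2.31 CPM in mutants. These ranges overlapped, and the log2 difference of 0.32 had a wide 95% interval of -1.14 to 1.78 (edgeR adjusted p 0.914). Aldh1a1 had the largest ratio of highest to lowest sample of the 9 genes, 38.2. Of its 50-base words in the annotation, 3.06% also occur in Aldh1a7, a close paralogue, so a small part of its reads could be split between them.

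Aldh1a2 (chromosome 9, 71215789 to 71296243), the main retinal dehydrogenase of early embryos, was at 34.2, 22.3 and 21.5 CPM in C57BL/6 wild types and 17.2, 6.11 and 8.03 CPM in mutants. Every mutant lay below every wild type, and replicate 4 was again the highest mutant. It was lower by a log2 difference of -1.31 (SE 0.32, 95% interval -2.01 to -0.61, edgeR adjusted p 0.0142). The call was lost without wild type replicate 1 (log2 -1.05, adjusted p 0.0577) without mutant replicate 6 (log2 -1.16, adjusted p 0.0634) and when only the C57BL/6 samples were fitted (-1.30, adjusted p 0.0808), and without mutant replicate 4 the difference was -1.88.

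The BALB/c samples held 14.1, 10.9 and 11 CPM of Aldh1a2 in wild types and 12.8, 8.91 and 11.6 CPM in mutants. These 6 values overlapped between genotypes and sat within the range of the C57BL/6 mutants. On the log2 scale the difference was -0.12 (95% interval -0.82 to 0.59, edgeR adjusted p 0.943).

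Aldh1a3 (chromosome 7, 66390893 to 66427477), the retinal dehydrogenase known from nasal and eye development, was at 34.2, 23.3 and 22.4 CPM in C57BL/6 wild types and 15.4, 7.81 and 8.89 CPM in mutants. The groups were well separated, with replicate 4 between the other mutants and the wild types. Its log2 difference of -1.32 (SE 0.23, 95% interval -1.82 to -0.81, edgeR adjusted p 0.0031) kept its call under every alternative setting and every left-out replicate that was run.

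In BALB/c, Aldh1a3 stood at 14.3, 16.8 and 12.3 CPM in wild types and 17, 16.4 and 16.2 CPM in mutants. The wild types spanned more than the mutants, and the groups overlapped. The log2 difference was 0.19 (95% interval -0.32 to 0.70, edgeR adjusted p 0.820).

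Aldh1a3 was also the 1 of the 9 genes whose genotype effect differed between strains by the test of the interaction. The effect in BALB/c minus that in C57BL/6 was 1.51 on the log2 scale (SE 0.33, 95% interval 0.79 to 2.22, edgeR adjusted p 0.0186). Of all genes tested, 10.0% had such an interaction and 5.46% had one that was more positive in BALB/c. The count of 1 of the 9 (11.1%) is thus near the share over all genes. The median interaction was 1.20 over the 9 genes and 0.007 over all genes. The call was lost without C57BL/6 mutant replicate 6 (1.4, adjusted p 0.0524).

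For Aldh1a1 and Aldh1a2 the interaction had the same sign but missed the threshold, at 2.72 (95% interval 0.63 to 4.81, edgeR adjusted p 0.0865) and 1.20 (0.20 to 2.19, adjusted p 0.108). Without C57BL/6 mutant replicate 4 the interaction test called 7 of the 9 genes and 3129 genes in all. Under that setting Aldh1a1 stood at 4.40 (edgeR adjusted p 0.00099) and Aldh1a2 at 1.77 (adjusted p 0.0020).

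Summed per kilobase, the 3 dehydrogenases came to 22.5 ± 7.0 CPM per kb (SD, n = 3) in C57BL/6 wild types, 8.36 ± 4.52 in C57BL/6 mutants, 10.7 ± 0.76 in BALB/c wild types and 11.1 ± 1.2 in BALB/c mutants. Aldh1a2 made up the largest mean share of this sum in 3 of the groups, from 49.8% to 54.7%, and in BALB/c mutants it stood level with Aldh1a3, at 43.8 ± 3.6% and 44.0 ± 4.2%. Aldh1a1 was the smallest share throughout, from 5.68% in C57BL/6 mutants to 13.5% in C57BL/6 wild types.

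**Figure D2:**
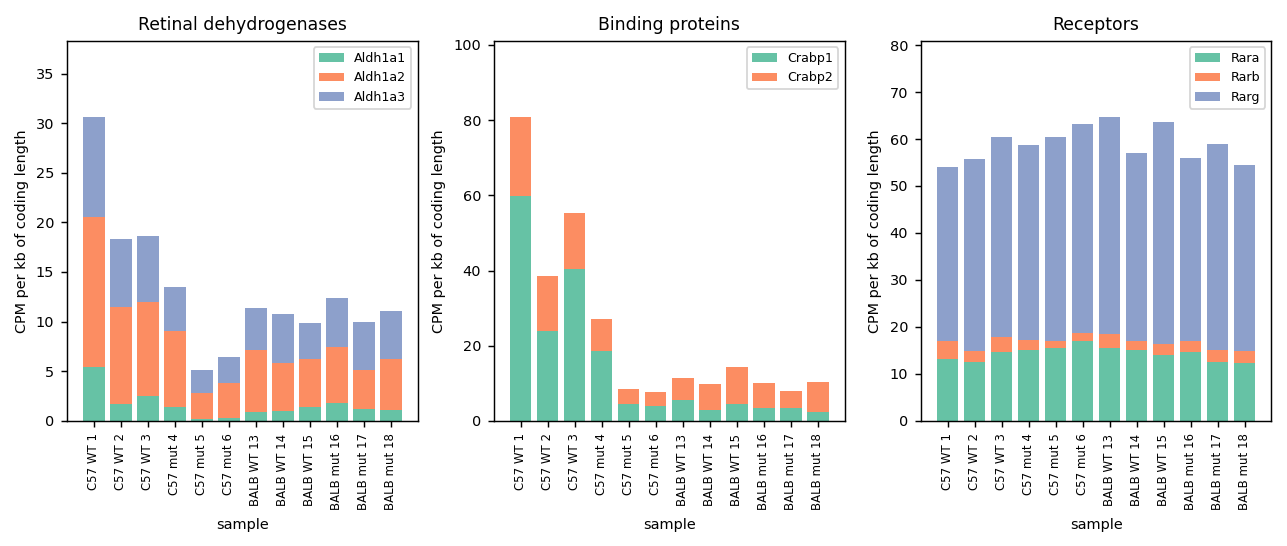
Stacked levels per sample in CPM per kilobase of coding length (vertical axes from 0) for the 3 retinal dehydrogenases, the 2 binding proteins and the 3 receptors, 1 bar per sample. The dehydrogenase and binding protein bars are tallest in the C57BL/6 wild types and shortest in C57BL/6 mutant replicates 5 and 6 or in BALB/c, while the receptor bars differ less in height.

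Cyp26b1 (chromosome 6, 84571414 to 84593908), which hydroxylates retinoic acid for removal, moved in another way from the dehydrogenases. It was highest in BALB/c wild types, and its lower level in BALB/c mutants was the 1 genotype difference among the 9 genes in that strain with an unadjusted p under 0.05. Over all genes 11.7% passed that unadjusted threshold, so 1 of 9 is near the background.

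In BALB/c, Cyp26b1 was at 53.4, 50.5 and 56.6 CPM in wild types and 34.7, 38.6 and 41.1 CPM in mutants. The genotypes did not overlap. The fitted log2 difference was -0.49 (SE 0.10, 95% interval -0.70 to -0.27), with an unadjusted p of 3.6e-04 and an edgeR adjusted p of 0.0885. DESeq2 gave it an adjusted p of 0.0020 and edgeR fitted to the BALB/c samples alone one of 0.0313, and over all alternatives and left-out replicates the adjusted p ran from 0.0020 to 0.352.

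C57BL/6 wild types held 39.3, 37.7 and 49.5 CPM of Cyp26b1, against 35.5, 38.1 and 35.1 CPM in mutants. The lowest wild type lay below the highest mutant. The log2 difference was -0.22 (95% interval -0.44 to -0.004, edgeR adjusted p 0.122), and the difference between the strains in this effect was -0.27 (95% interval -0.57 to 0.04, adjusted p 0.222). With total counts in place of the composition scaling, the C57BL/6 difference became -0.41 and was called (adjusted p 0.0094). That scaling shifts the median of all genes by -0.196.

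Averaged over strains, 2 of the 9 genes were lower in mutants and called, Cyp26b1 and Crabp2. Of all genes 7.99% were called in this comparison and 3.28% were called lower, and the median log2 difference was -0.56 over the 9 genes and -0.005 over all. Cyp26b1 stood at -0.35 (SE 0.07, 95% interval -0.51 to -0.20, edgeR adjusted p 0.0132) and kept its call under every alternative and every left-out replicate run. The call of Crabp2 (-0.95, SE 0.23, adjusted p 0.0298) was lost in the fits without C57BL/6 wild type replicate 1, C57BL/6 mutant replicates 5 and 6, replicate 15 of the BALB/c wild types, and replicates 17 and 18 of the BALB/c mutants (adjusted p 0.0523 to 0.0760), and with the Y-linked covariate (-0.92, adjusted p 0.0720). Without C57BL/6 mutant replicate 4 the averaged test called 7 of the 9 genes and 2621 in all.

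The ratio of the summed dehydrogenases to Cyp26b1, both per kilobase, was 2.65 ± 1.01 (SD, n = 3) in C57BL/6 wild types, 1.13 ± 0.63 in C57BL/6 mutants, 0.969 ± 0.110 in BALB/c wild types and 1.43 ± 0.27 in BALB/c mutants. The mean was highest in C57BL/6 wild types. It is a ratio of RNA levels and carries no measure of retinoic acid.

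The cellular retinoic acid binding proteins differ in their known roles. CRABP2 is known to deliver retinoic acid to nuclear receptors, and CRABP1 to hold it in the cytosol. Both genes fell in C57BL/6 mutants, and both were lower in BALB/c than in C57BL/6 wild types.

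Crabp1 (chromosome 9, 54764808 to 54773109) was at 44.4, 17.8 and 30.0 CPM in C57BL/6 wild types and 13.7, 3.35 and 2.91 CPM in C57BL/6 mutants. The wild types varied widely among themselves, and replicate 4 lay nearer to the lowest wild type than to the other mutants. On the log2 scale the difference was -2.20 (SE 0.52, 95% interval -3.34 to -1.06, edgeR adjusted p 0.0123). It was -3.30 without mutant replicate 4, and the call was lost when only the C57BL/6 samples were fitted (-2.18, adjusted p 0.0770).

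In BALB/c, Crabp1 stood at 4.21, 2.22 and 3.34 CPM in wild types and 2.52, 2.45 and 1.82 CPM in mutants. All 6 values were low and the genotypes overlapped. The log2 difference was -0.52 (95% interval -1.75 to 0.72, edgeR adjusted p 0.791).

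Crabp2 (chromosome 3, 87948693 to 87953372) was at 18.9, 13.2 and 13.3 CPM in C57BL/6 wild types and 7.64, 3.44 and 3.29 CPM in mutants. No mutant reached the wild type range. The log2 difference of -1.66 (SE 0.33, 95% interval -2.37 to -0.94, edgeR adjusted p 0.0055) was called under every alternative and left-out replicate run, as for Aldh1a3.

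The BALB/c levels of Crabp2 were 5.26, 6.24 and 8.90 CPM in wild types and 6.06, 4.22 and 7.04 CPM in mutants. The groups overlapped, with a log2 difference of -0.24 (95% interval -0.95 to 0.47, edgeR adjusted p 0.843). The interaction was 1.41 for Crabp2 (95% interval 0.41 to 2.42, edgeR adjusted p 0.0693) and 1.68 for Crabp1 (0.02 to 3.34, adjusted p 0.165), and both were called without C57BL/6 mutant replicate 4 (1.93, adjusted p 0.0027, and 2.79, adjusted p 0.0020). With all 12 samples DESeq2 called that of Crabp2 (1.42, adjusted p 0.0142).

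Per kilobase, Crabp1 made up 69.8 ± 6.7% of the 2 binding proteins in C57BL/6 wild types and 58.2 ± 9.1% in C57BL/6 mutants, but 36.9 ± 10.7% in BALB/c wild types and 33.0 ± 8.8% in BALB/c mutants (SD, n = 3 each). The BALB/c samples held more Crabp2 than Crabp1 per kilobase, and the C57BL/6 samples the reverse.

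**Figure D3:**
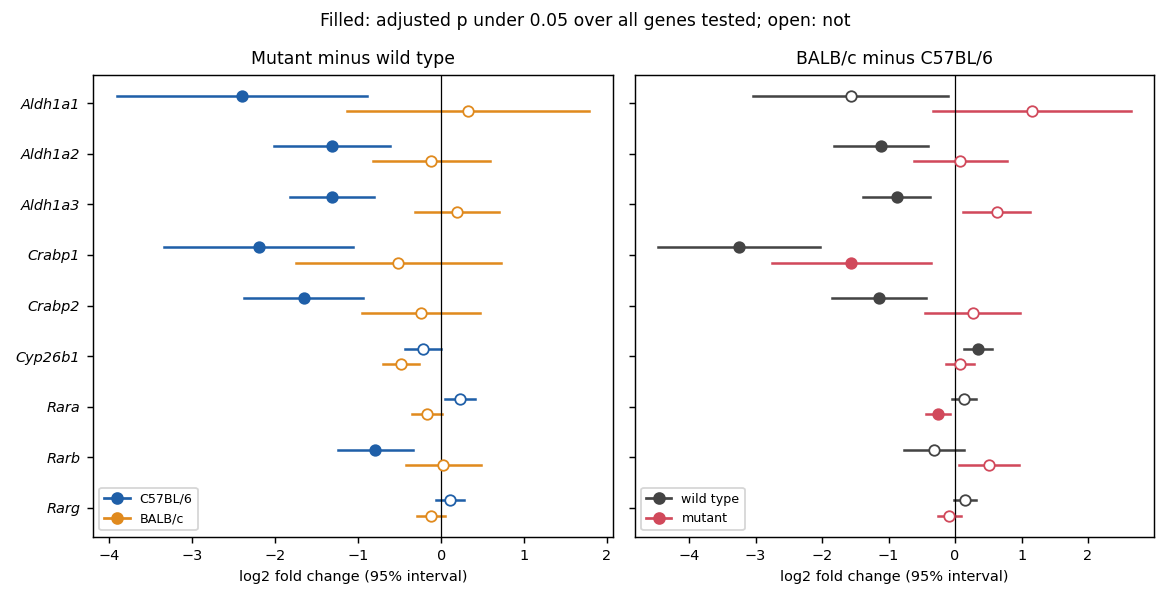
Log2 fold change with its 95% interval (horizontal axes) for each gene, mutant minus wild type within each strain on the left and BALB/c minus C57BL/6 within each genotype on the right. Filled symbols passed an adjusted p of 0.05. On the left the filled points are all C57BL/6 and all below 0, and on the right Crabp1 in wild types lies farthest from 0, at -3.24.

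Of the 3 receptors, 1 was called between genotypes with edgeR, in C57BL/6. This was Rarb, which carries the response element printed above and is known to be induced by retinoic acid.

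Rarb (chromosome 14, 16430840 to 16575210) was at 10.7, 6.5 and 8.85 CPM in C57BL/6 wild types and 6.10, 4.17 and 4.74 CPM in mutants. The highest mutant, replicate 4, lay just under the lowest wild type. The fitted log2 difference was -0.79 (SE 0.21, 95% interval -1.24 to -0.34, edgeR adjusted p 0.0185). The call was lost without wild type replicate 1 (log2 -0.60, adjusted p 0.0825), mutant replicate 5 (-0.68, adjusted p 0.0700) or mutant replicate 6 (-0.76, adjusted p 0.0685), and when only the C57BL/6 samples were fitted (-0.79, adjusted p 0.0732).

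In BALB/c, Rarb was measured at 8.56, 5.62 and 6.79 CPM in wild types and 6.72, 7.32 and 7.28 CPM in mutants. The mutants lay inside the wild type range. The log2 difference was 0.03 (95% interval -0.42 to 0.47, edgeR adjusted p 0.989). The interaction of Rarb was 0.82 and missed the threshold (edgeR adjusted p 0.0892). It was called with DESeq2 (0.82, adjusted p 0.0463), without C57BL/6 wild type replicate 2 (0.98, adjusted p 0.0469) and without C57BL/6 mutant replicate 4 (1.00, adjusted p 0.0309).

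Rarb lies end to end with Top2b. In the deposited table Top2b ends 52 bases before Rarb begins, while in the GENCODE annotation 34.1% of the 50-base words of Rarb are also found in another gene, mostly in Top2b. The strand setting of the counting is not given in the sources used here, so reads of the overlap may be uncertain. Top2b ran from 107 to 160 CPM over the samples and was highest in C57BL/6 mutant replicate 5, the sample where Rarb was lowest.

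Rara (chromosome 11, 98937696 to 98974942) was at 54.3, 51.8 and 60.8 CPM in C57BL/6 wild types and 62.1, 63.7 and 69.8 CPM in mutants. The groups did not overlap, but the log2 difference of 0.23 (SE 0.08, 95% interval 0.05 to 0.41) had an edgeR adjusted p of 0.063. It was 0.03 with total counts in place of the composition scaling, which itself shifts the median of all genes by -0.196, and it was called with DESeq2 (0.23, adjusted p 0.0444) and without wild type replicate 3 (0.30, adjusted p 0.0337).

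BALB/c wild types held 63.9, 61.9 and 57.6 CPM of Rara and the mutants 60.6, 51.7 and 50.8 CPM. Mutant replicate 16 lay within the wild type range. On the log2 scale the difference was -0.17 (95% interval -0.35 to 0.01, edgeR adjusted p 0.461), and the interaction of -0.40 (95% interval -0.65 to -0.14) had an adjusted p of 0.0513. The interaction was called with DESeq2 (adjusted p 0.0188) and limma-voom (0.0458), and it was -0.17 with total counts (adjusted p 0.367).

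Rarg (chromosome 15, 102234940 to 102257483), known as the receptor of cartilage and skin, was at 119, 131 and 137 CPM in C57BL/6 wild types and 133, 140 and 143 CPM in mutants. BALB/c wild types held 148, 128 and 152 CPM and the mutants 125, 140 and 127 CPM. The groups overlapped in both strains. The log2 difference was 0.11 in C57BL/6 (95% interval -0.06 to 0.28, edgeR adjusted p 0.333) and -0.13 in BALB/c (-0.30 to 0.04, adjusted p 0.584), and the C57BL/6 value turned to -0.08 with total counts.

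Per kilobase, Rarg had the highest mean over the 12 samples, 42.2 CPM per kb. Crabp1 and Rara followed at 14.5 and 14.3 CPM per kb, then Crabp2 at 9.03, Cyp26b1 at 8.77, Aldh1a2 at 6.57 and Aldh1a3 at 5.02. Rarb, at 2.5, and Aldh1a1, at 1.56, were the lowest. The ratio of highest to lowest sample was 1.28 for Rarg and 1.37 for Rara, while it was 24.4 for Crabp1. The order was not the same in every group. Within C57BL/6 wild types Crabp1 lay above Rara in each sample, as did Crabp2, and in BALB/c Cyp26b1 lay above Crabp2 in each sample. In C57BL/6 wild types the Crabp1 mean of 41.5 ± 18 CPM per kb stood level with the 40.1 ± 2.9 of Rarg (SD, n = 3 each), a difference within the spread of the samples.

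Among the receptors, Rarg made up 70.7% to 72.1% of the summed level per kilobase in the 4 group means and Rara 23.3% to 25.9%. The Rarb share was 5.53 ± 1.47% in C57BL/6 wild types and 2.98 ± 0.67% in C57BL/6 mutants, and stood at 4.06 ± 0.64% and 4.54 ± 0.25% in BALB/c wild types and mutants (SD, n = 3 each). The summed receptor level lay between 56.4 and 61.8 CPM per kb in all 4 groups.

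Between the wild types of the strains, 5 of the 9 genes were called. Aldh1a2, Aldh1a3, Crabp1 and Crabp2 were lower in BALB/c and Cyp26b1 was higher, where 48.5% of all genes were called, 25.6% lower and 22.8% higher. The count is near the share over all genes. Y-linked counts were high in all 3 C57BL/6 wild types and in BALB/c wild type replicate 15, and low in replicates 13 and 14. With these counts as a covariate the same 5 genes were called. The median log2 difference was -0.88 over the 9 genes and -0.001 over all.

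Crabp1 had the largest strain difference of the 9, at -3.24 (SE 0.56, edgeR adjusted p 7.3e-04), or 9.48-fold lower in BALB/c wild types. The others were smaller, with Crabp2 at -1.15 (edgeR adjusted p 0.0119), Aldh1a2 at -1.12 (0.0134), Aldh1a3 at -0.88 (0.0084) and Cyp26b1 at 0.34 (0.0133). Aldh1a1 stood at -1.57 without a call (edgeR adjusted p 0.0729), although its ranges did not overlap. It was called with limma-voom (adjusted p 0.0470) and with edgeR on only the groups compared (adjusted p 0.0118). Calls near the threshold were lost for Aldh1a2 without C57BL/6 wild type replicate 1 (-0.86, adjusted p 0.0550) or BALB/c wild type replicate 15 (-1.05, 0.0506), and for Crabp2 without BALB/c wild type replicate 13 (-1.0, 0.0506). Cyp26b1 lost its call without C57BL/6 wild type replicate 1 or 2 or BALB/c wild type replicate 15 (0.27 to 0.30, adjusted p 0.0508 to 0.0536) and with total counts (0.23, adjusted p 0.0587), a scaling that shifts the median of all genes by -0.115. Crabp1 and Aldh1a3 lost no call in this comparison.

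Between the mutants of the 2 strains, 2 of the 9 genes were called, both lower in BALB/c, against 36.9% of all genes called and 18.9% called lower. These were Crabp1 (-1.56, edgeR adjusted p 0.0417) and Rara (-0.26, adjusted p 0.0261). The median log2 difference was 0.08 over the 9 genes and -0.004 over all. Without C57BL/6 mutant replicate 4 the count was 6 (5374 genes in all against 5968), with Crabp1 no longer called (-0.46, adjusted p 0.347). Aldh1a1 (2.83), Aldh1a2 (0.65), Aldh1a3 (0.99), Rarb (0.68) and Crabp2 (0.78) were then called higher in BALB/c mutants, with edgeR adjusted p of 0.0013 to 0.0426. Rara lost its call without C57BL/6 mutant replicate 6 (-0.21, adjusted p 0.108) or BALB/c mutant replicate 17 or 18 (-0.22 in each, 0.105 and 0.0985), and with total counts (-0.14, 0.219). Crabp1 also lost it without BALB/c mutant replicate 16, 17 or 18 (-1.63, -1.63 and -1.43, adjusted p 0.0876 to 0.119), with total counts (-1.48, adjusted p 0.0618), with the Y-linked covariate (-1.55, adjusted p 0.0514), with limma-voom (-1.25, adjusted p 0.228), and with only the groups compared (-1.56, adjusted p 0.0636). In the last 2 of these fits Aldh1a3 (limma-voom, 0.67, adjusted p 0.0378) or Rarb (only the groups compared, 0.52, adjusted p 0.0437) was called in its place. DESeq2 called 3 of the 9, adding Aldh1a3 (0.61, adjusted p 0.0233).

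The 6 lowered genes shared their highest samples within the C57BL/6 groups, while the order of the remaining samples differed between genes. Each was highest in C57BL/6 wild type replicate 1, and C57BL/6 mutant replicate 4 was the highest mutant of that strain for each. Marker lists of nasal and other lining tissues were also lower in C57BL/6 mutants, again with replicate 4 the highest mutant of that strain. They did not follow the 6 genes in every sample. In BALB/c, each of the 6 genes but Crabp1 was higher in every sample than in C57BL/6 mutant replicates 5 and 6. The airway secretory list (Bpifa1, Bpifb1, Muc5b, Scgb1c1 and Lypd2) summed to 79.5 to 337 CPM in C57BL/6 wild types, to 57.1 CPM in mutant replicate 4, and to 0.582 and 1.56 CPM in mutant replicates 5 and 6. In BALB/c it summed to 0.826 to 1.82 CPM in wild types and 1.02 to 1.16 CPM in mutants, with the defining gene Bpifa1 at 0 in 5 of the 6 samples.

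The ciliated list (6 genes, Foxj1 among them) summed to 14.8 to 33.3 CPM in C57BL/6 wild types, 4.03 to 9.71 in mutants, 4.57 to 5.26 in BALB/c wild types and 4.78 to 6.00 in BALB/c mutants. In C57BL/6, 5 of its 6 genes were called lower in mutants. The 3 olfactory sustentacular markers summed to 69.1 to 150 CPM, 0.534 to 55.7, 0.751 to 0.988 and 0.240 to 0.787 CPM in the same order, with 1 called lower. All 4 basal keratinocyte markers were called lower in C57BL/6 mutants, where they summed to 0.269 to 4.65 CPM against 8.2 to 197 in wild types, and they summed to at most 0.560 CPM in any BALB/c sample. Unlike the 6 genes, this sum was highest in C57BL/6 wild type replicate 2, at 197 CPM against 18.3 in replicate 1.

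Cartilage markers (5 genes) summed to 4508 to 6624 CPM in C57BL/6 wild types and 252 to 2548 in mutants, with 2 called lower, and to 573 to 1674 and 981 to 4791 CPM in BALB/c wild types and mutants. Osteoblast markers (5 genes) ran the other way, at 60823 to 107830 CPM in C57BL/6 wild types and 115020 to 139740 in mutants, with 3 called higher. The erythroid list (4 genes) summed to 169 to 232 CPM in C57BL/6 wild types and 45.1 to 71.6 in mutants, with 3 called lower, and to 175 to 289 and 358 to 446 CPM in BALB/c wild types and mutants. Meningeal markers stayed at or under 2.34 CPM in every sample. Of the other lists in C57BL/6 mutants, 2 of 4 macrophage, 1 of 4 endothelial and 1 of 4 suture mesenchyme markers were called higher, 1 of 4 glial markers was called lower, 1 of 6 olfactory neuron markers was called in each direction, and 0 of 5 muscle markers were called. BALB/c mutant replicate 16 held the highest muscle and glial sums of the 12 samples, at 364 and 400 CPM. The part of these tissues in the levels of the 6 genes was not tested.

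**Figure D4:**
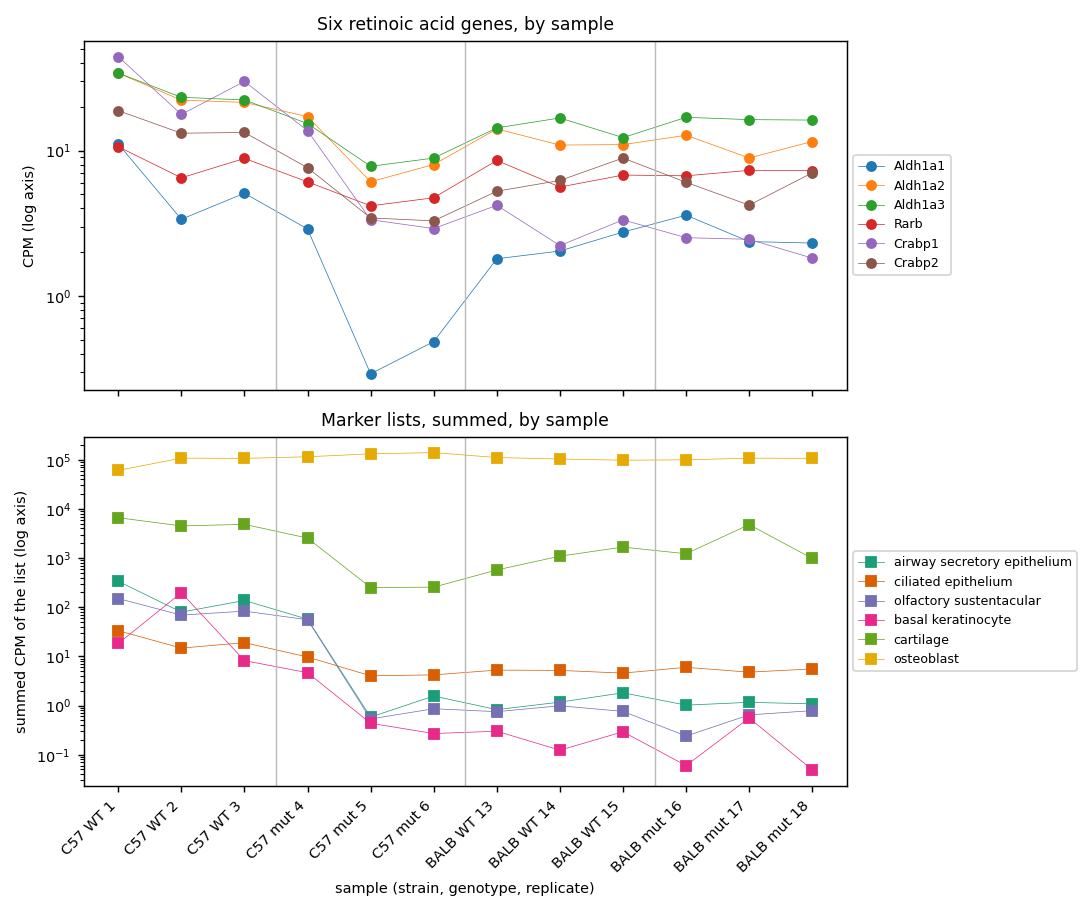
Upper panel, CPM (log axis) of the 6 genes lower in C57BL/6 mutants in each of the 12 samples, and lower panel, summed CPM (log axis) of 6 marker lists in the same samples. Thin lines join the points of a gene or list only to guide the eye, since samples have no order within a group. In both panels C57BL/6 mutant replicate 4 lies between the C57BL/6 wild types and replicates 5 and 6 for every gene and list plotted.

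Other genes were ranked by how far their profile over the 12 samples lay from that of each gene, as the root mean square difference of log2 CPM after centring. The values describe the 12 samples, which share strain, genotype and tissue makeup, among 12908 genes compared. Nearest to Aldh1a1 were Moxd1 (0.312), Jakmip1 (0.347) and Fgf12 (0.409), against a median gene at 1.31. Nearest to Aldh1a2 were Hes6 (0.170), Atf5 (0.190) and the ciliary gene Ccdc39 (0.198), and nearest to Aldh1a3 were Dhx58 (0.113), Atp1b1 (0.143) and Hspb8 (0.155).

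For Crabp1 the nearest were Sall1 (0.310), the ciliary gene Ccdc40 (0.348) and Shank2 (0.349), and for Crabp2 they were Ppfia3 (0.223), Id4 (0.253) and Rap1gap2 (0.285). Rarb lay nearest to Mgst3 (0.147), Mettl7a1 (0.151) and Rac3 (0.151), and Cyp26b1 to Ptn (0.139), Utp18 (0.140) and Ppp1r11 (0.141). Rarg had the nearest neighbours, Csnk2b (0.033) and Rps21 (0.040) among them, in a profile that is nearly level. Rara lay nearest to Gtf2h2 (0.075), Pccb (0.081) and Zmat1 (0.081). Among the 9 genes themselves, Rara and Rarg were closest (0.137), followed among the lowered genes by Aldh1a2 with Aldh1a3 (0.287) and with Crabp2 (0.290), and Rarg and Crabp1 were farthest apart (1.57).

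A list of 40 other retinoid genes was described in the same fit, of which 33 passed the filter on low counts. In C57BL/6, 9 of the 33 (27.3%) were called between genotypes, 3 higher and 6 lower in mutants, beside 23.9% of all genes. Their median log2 difference was -0.15. In BALB/c the count was 0 of 33, with a median of 0.04.

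Of 4 tested genes for uptake, transport and storage of retinol, 3 were called lower in C57BL/6 mutants, Stra6 and Rbp4 among them. Bco1, which cleaves carotene to retinal, stood at 1.34 without a call (edgeR adjusted p 0.208). Stra6, the membrane receptor that takes up retinol, was at 15.4, 8.37 and 9.22 CPM in C57BL/6 wild types and 5.69, 0.582 and 1.62 CPM in mutants. Replicate 4 was again the highest mutant and the groups did not overlap. Its log2 difference was -2.06 (SE 0.61, edgeR adjusted p 0.0304). The call was lost without wild type replicate 1 (-1.72, adjusted p 0.102), mutant replicate 5 (-1.58, adjusted p 0.0551) or mutant replicate 6 (-1.81, adjusted p 0.109), and the difference was -3.33 without mutant replicate 4. Rbp4, which carries retinol in blood, fell by 0.62 on the log2 scale (adjusted p 0.0012). When only the C57BL/6 samples were fitted, Adh1 was the 1 gene of the list called, so Rbp4 and Stra6 lost their calls.

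In the group that interconverts retinol and retinal, 1 of 11 was called higher and 1 lower in C57BL/6 mutants, and 9 of the 11 log2 differences lay below 0. Dhrs3, which reduces retinal back to retinol and is known to be induced by retinoic acid, rose by a log2 difference of 0.45 (edgeR adjusted p 0.0150), and Adh1, an alcohol dehydrogenase, fell by 1.59 (adjusted p 0.0062). Rdh10, the main retinol dehydrogenase of embryos, was at 11.4 ± 1.4, 10.7 ± 0.9, 9.9 ± 0.66 and 9.63 ± 0.55 CPM (SD, n = 3) in C57BL/6 wild types, C57BL/6 mutants, BALB/c wild types and BALB/c mutants. Its log2 difference in C57BL/6 was -0.09 (adjusted p 0.581).

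None of the 3 other dehydrogenase and breakdown genes was called in C57BL/6 by the edgeR fit of all 12 samples with composition scaling. Aldh1a7 followed its paralogue Aldh1a1, at 17.5, 7.17 and 10.2 CPM in C57BL/6 wild types and 4.34, 0.0970 and 0.0539 CPM in mutants (log2 -2.94, edgeR adjusted p 0.0564). It was called without mutant replicate 4 (-7.19, adjusted p 9.9e-06), with total counts (-3.12, adjusted p 0.0457), with halved counts (-2.93, adjusted p 0.0339) and with limma-voom (-4.99, adjusted p 0.0071). Cyp26a1, the breakdown enzyme best known as induced by retinoic acid, was at 0.811 CPM or less in each group mean and 0.130 in BALB/c wild types, and its log2 difference in C57BL/6 was -0.38 (adjusted p 0.530).

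Among partner receptors and carriers, Rxra (0.31, edgeR adjusted p 0.0168) and Rxrb (0.25, adjusted p 0.0152) rose in C57BL/6 mutants and Fabp5 fell by 0.41 (adjusted p 0.0298). Without mutant replicate 6 these calls were lost (adjusted p 0.0709, 0.0709 and 0.0879), as was that of Dhrs3 (0.32, adjusted p 0.0646). Fabp5 also lost its call without wild type replicate 2 or 3 (-0.39 and -0.37, adjusted p 0.0713 and 0.0708). With total counts, Rxra stood at 0.12, Rxrb at 0.05 and Dhrs3 at 0.26, and none of these 3 was called (edgeR adjusted p 0.115, 0.637 and 0.104). Of 8 tested genes known to respond to retinoic acid, 1 was called, Meis1, which fell by 0.74 (adjusted p 0.0167). It lost its call without wild type replicate 1 (-0.42, adjusted p 0.0502), mutant replicate 5 (-0.70, 0.0561) or mutant replicate 6 (-0.70, 0.0640). The median log2 difference of the 8 responsive genes was -0.05, with 4 values above 0 and 4 below. Averaged over strains, 6 of the 33 (18.2%) were called, beside 7.99% of all genes, with Nrip1, a corepressor of nuclear receptors, higher (0.42, edgeR adjusted p 0.0285) and Rbp4, Adh1, Adh5, Adh7 and Fabp5 lower. Of these, Rbp4 and Adh1 kept their calls under every alternative and left-out replicate run, and each of the others lost its call in several of the fits that left out 1 replicate.

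Between wild types of the strains, 17 of the 33 (51.5%) were called, 9 higher and 8 lower in BALB/c, beside 48.5% of all genes. Rbp4 had the largest positive difference, with 3.78 ± 0.21 CPM in C57BL/6 and 23.7 ± 0.32 CPM in BALB/c wild types (SD, n = 3 each, log2 2.65, edgeR adjusted p 3.4e-09). Nrip1 was lower in BALB/c, at 3.45 ± 0.49 CPM against 17.8 ± 1.2 (log2 -2.37, adjusted p 8.3e-07). Between mutants 13 of the 33 (39.4%) were called, 10 higher and 3 lower in BALB/c, beside 36.9% of all genes.

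**Figure D5:**
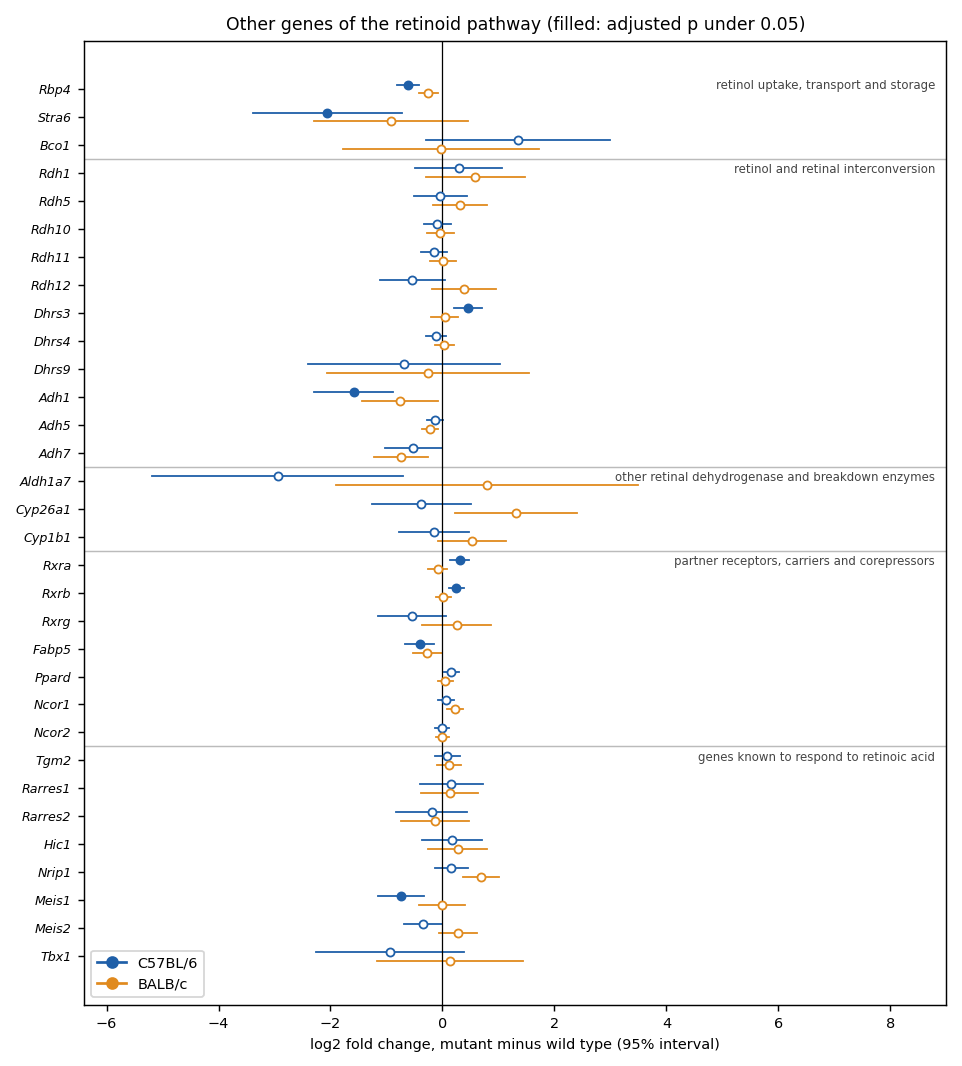
Log2 fold change of mutant minus wild type with its 95% interval (horizontal axis) for other retinoid genes tested, grouped by role, in C57BL/6 and in BALB/c. Filled symbols passed an adjusted p of 0.05. The filled points are all from C57BL/6, with Stra6 and Adh1 farthest below 0, and no BALB/c point is filled.

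In the authors' deposited table of group comparisons, 6 of the 9 genes had q under 0.05 between genotypes in C57BL/6, beside 25.3% of all genes with a q there, and 0 between genotypes in BALB/c, beside 1.43%. Between wild types of the strains the authors' deposited table had 6, beside 45.3% of all genes, which were Aldh1a1, Aldh1a2, Aldh1a3, Rarg, Crabp1 and Crabp2 and did not include Cyp26b1 (q 0.0669). Between mutants it had 2 in the authors' deposited table, beside 36.1%, which were Crabp1 and Rarb and did not include Rara (q 0.0644). For the genotype comparison in C57BL/6 the smallest q in the authors' deposited table was that of Crabp2, 1.8e-07, and the largest of the 6 was that of Aldh1a2, 7.2e-04.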

How the data were processed

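Raw gene counts of 12 samples of newborn mouse skull were analysed as deposited. Per the submitters' processing notes, reads passed through bcl2fastq, TopHat2 2.0.6, HTSeq and DESeq2 with the build mm10; their roles and the strand setting are not given in the sources used here. The deposited counts were whole and all even. The authors' deposited RPKM values and coding length were used only to check the counts and to scale levels per kilobase. The authors' deposited table holds their own comparisons, as log2 fold changes with a p-value and a q-value each.

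Counts were filtered (edgeR filterByExpr, minimum count 10, total 15), scaled by TMM and fitted with edgeR 4.0.16 (quasi-likelihood, two-sided, R 4.3.3) with 1 mean per group and 6 contrasts. Log2 CPM for likeness used a prior count of 2 and genes with a mean of at least 1 CPM. Alternatives were DESeq2 size factors, total counts, no filter, halved counts, DESeq2 1.42.0, limma 3.58.1 (voom), only the groups compared, a covariate of Y-linked genes, and each replicate left out. The scripts were tested on simulated data. Table rows whose identifier occurs more than once (69 rows of 26 identifiers) hold none of the 9 genes.

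The genes named were the 9 genes, the retinoid and marker lists, and the 3 genes nearest in profile to each of the 9. Some of these genes are counted but not reported here by name. These genes and lists were chosen with earlier results of these data known. Sequence windows were copied from RefSeq promoters, with none printed for Aldh1a3 and Crabp2. Of the erythroid list, Hbb-bt was not used here.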

Additional observations from a re-analysis of the deposited data

Results flagged for a closer look

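The genotype effect of Aldh1a3 differed between the strains by the test of the interaction, at 1.51 on the log2 scale (BALB/c minus C57BL/6, edgeR adjusted p 0.0186), with all 3 C57BL/6 mutants below all 3 C57BL/6 wild types and overlapping genotypes in BALB/c. That of Rxra, the retinoid X receptor that pairs with the retinoic acid receptors, also differed, at -0.40 (edgeR adjusted p 0.0445), with group means of 111 and 137 CPM in C57BL/6 wild types and mutants and 131 and 123 CPM in BALB/c. Aldh1a3 was the 1 called of the 9 genes (11.1%), near the 10.0% of all genes with a called interaction. Rxra was the 1 called of the 33 other retinoid genes (3.03%), beside the same 10.0%. The Rxra call was lost with total counts (-0.17, edgeR adjusted p 0.146), with no filter on low counts (-0.40, adjusted p 0.0564), with the Y-linked covariate (-0.43, adjusted p 0.0542) and, with single replicates left out, in 9 of 12 cases (adjusted p 0.0543 to 0.107). It was kept without C57BL/6 wild type replicate 2 or 3 and without C57BL/6 mutant replicate 4. The Aldh1a3 call was lost without C57BL/6 mutant replicate 6 (1.4, adjusted p 0.0524).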

How the results depend on the processing

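With 3 samples a group, calls near the threshold rested on single libraries. No direction of a called difference turned under any alternative run. In the genotype comparison of C57BL/6, the 6 genes called became 2 when only the groups compared were fitted (1458 genes in all against 3867), and 3 to 7 with 1 replicate left out. In BALB/c the 0 became 1, Cyp26b1, with DESeq2 (316 genes against 22) and with only the groups compared (71). The 5 called between wild types became 3 to 6 with 1 replicate left out. The 2 called between mutants became 3 with DESeq2, 0 with total counts and 1 with the Y-linked covariate, and 0 to 6 with 1 replicate left out, while limma-voom and the fit of only the groups compared kept a count of 2 with Crabp1 replaced. The 1 interaction became 4 with DESeq2 (2690 genes against 1626) and 2 with limma-voom, and 0 to 7 with 1 replicate left out. The 2 called on average became 4 with DESeq2 (2190 genes against 1294), 4 with limma-voom, 1 with the Y-linked covariate (835) and 1 to 7 with 1 replicate left out. Aldh1a1 in C57BL/6 also lost its call with the Y-linked covariate (adjusted p 0.0805), where all 3 wild types and 1 of 3 mutants were high in Y-linked counts.

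Of the 33 other retinoid genes, the 9 called in C57BL/6 became 1, Adh1, when only the groups compared were fitted and 3 to 10 with 1 replicate left out. The 0 in BALB/c became 1 with DESeq2. The 1 interaction became 4 with total counts, 0 with no filter, 3 with DESeq2, 0 with the Y-linked covariate and 0 to 4 with 1 replicate left out. The 6 on average became 3 with the Y-linked covariate and 2 to 8 with 1 replicate left out. The cause of these changes was not tested. No paired analysis was possible because the groups share no replicate numbers. Of the 9 genes, Aldh1a1 had the lowest count in any sample, 12, and among the other retinoid genes Aldh1a7 went down to 2.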
